A study of Mus musculus with 11 samples.

Results

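The 10 genes described here are known from neutrophils and inflammatory myeloid cells and were measured in bulk liver RNA: S100a8, S100a9, Csf3r, Ltf, Itgam, Slfn4, Chil3, Cd93, Lyz2 and Aif1. They were taken by symbol from a table of 13636 genes, and 10 of 10 had a row with a value in every library. The set was chosen by values measured in these same libraries, namely higher levels in mimic livers than in the controls, so the mimic values below describe these genes and are no independent support for a direction. The 11 libraries came from liver of male C57BL/6J mice that were all fed a Western diet for one month, starting when they were 8 weeks old. The mice then received, over 6 weeks, a mimic of the microRNA miR-30c (4 libraries), a scramble oligomer (3 libraries) or PBS (4 libraries). The dose of either oligomer was stepped up, through 2.5 and 5.0 to 7.5 mg/kg. All groups share the diet, the strain and the sex, and no chow-fed or uninjected liver was analysed here. The labels name neither a carrier for the oligomers nor the animal behind each library, so p-values measure only the spread between these libraries.

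Neutrophils are short-lived granulocytes that enter inflamed tissue from the blood, and inflammatory monocytes are their companions that can mature into macrophages on site. S100a8 and S100a9 pair to form calprotectin, a calcium- and zinc-binding protein that makes up much of the neutrophil cytosol and acts on Toll-like receptor 4 when released. Resident macrophages of the liver, called Kupffer cells, carry several myeloid genes as well, and Lyz2, Aif1, Itgam and Cd93 are not restricted to neutrophils. In bulk liver RNA a higher value can come from more cells of a type or from more RNA per cell, and these cannot be told apart here.

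The mature miR-30c-5p of the mouse is shown because it names the agent that was injected. Capitals mark the seed (bases 2 to 8), which pairs with targets. The labels do not give the sequence or chemistry of the mimic itself.
mmu-miR-30c-5p: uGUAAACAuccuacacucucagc
The 7-base match to this seed, TGTTTAC, was looked for in the longest annotated 3′ UTR of each gene (GENCODE M21, GRCm38). It was present in 0 of the 10 genes, against 1889 of 11483 measured genes with a 3′ UTR (16.5%). The 3′ UTRs searched were between 71 bases (S100a8) and 4606 bases (Cd93) long. A missing match says only that these letters are not in these stretches.

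S100a8 (chr3:90668978-90670035, plus strand) and S100a9 (chr3:90692632-90695721, minus strand) lie 22596 bases apart on GRCm38. Their promoters, from RefSeq on GRCm38.p6, are shown because this pair moved together, and that of Slfn4 because it had one of the steadiest increases. Each runs from 250 bases before to 50 bases after the RefSeq start. Capitals mark matches, on either strand, to GAGGAA (the core of a PU.1 site), TTNNGNAA (C/EBP), TTCNNNGAA (STAT), or to GAAA with a second GAAA 2 bases on (an interferon response element).
S100a8 (chr3:90668821-90669120, plus strand): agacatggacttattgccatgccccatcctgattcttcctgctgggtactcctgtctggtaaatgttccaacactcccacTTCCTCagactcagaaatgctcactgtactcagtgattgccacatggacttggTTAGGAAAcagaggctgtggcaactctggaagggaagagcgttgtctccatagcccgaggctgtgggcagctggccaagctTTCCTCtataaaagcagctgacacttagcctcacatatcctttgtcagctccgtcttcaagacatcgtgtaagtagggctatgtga
S100a9 (chr3:90695672-90695971, minus strand): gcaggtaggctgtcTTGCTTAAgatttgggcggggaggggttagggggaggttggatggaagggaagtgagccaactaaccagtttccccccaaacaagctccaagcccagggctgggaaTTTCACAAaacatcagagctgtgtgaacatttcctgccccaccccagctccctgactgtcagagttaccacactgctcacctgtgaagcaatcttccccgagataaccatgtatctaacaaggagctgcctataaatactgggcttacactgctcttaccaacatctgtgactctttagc
Slfn4 (chr11:83174936-83175235, plus strand): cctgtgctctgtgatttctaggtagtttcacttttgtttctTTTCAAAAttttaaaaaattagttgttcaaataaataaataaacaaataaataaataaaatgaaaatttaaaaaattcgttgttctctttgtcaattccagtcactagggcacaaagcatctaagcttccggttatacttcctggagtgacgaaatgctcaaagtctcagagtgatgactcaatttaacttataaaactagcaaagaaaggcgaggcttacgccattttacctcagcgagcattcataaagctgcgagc
RefSeq promoters were at hand for 9 of the genes, and Cd93 had none in the table used. GAGGAA was present in 5 of the 9, against 28.3% of 32851 promoters, and TTNNGNAA in 7 of the 9, against 40.7%. TTCNNNGAA was present in 1, that of Chil3, against 8.3%, and the interferon response element in 1, that of Aif1, against 3.44%. Forward and reverse forms were both counted, TTCNNNGAA reads the same on both strands, and TTNNGNAA and GAGGAA can overlap, as they do in the Itgam promoter. These letters are short, and a match is no evidence that a factor binds.

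Values are scaled CPM as deposited, that is, read numbers relative to an effective size of each library. Every value was a whole multiple of a step that was taken as 1 read, and on that basis 39705157 to 60399018 reads were counted in the mimic libraries, 74519792 to 88869950 in the scramble libraries and 62848115 to 101380174 in the PBS libraries. That 1 step is 1 read is inferred from the values and not stated in the sources used here, and in mimic replicate 2 and PBS replicate 3 the smallest value was 2 steps. The read numbers and exact intervals below depend on it. Liver identity was plain in all libraries: 12 measured hepatocyte genes, Alb and Apoa1 among them, summed to between 28155 and 33946 in mimic, 36636 and 40162 in scramble and 34502 and 41161 in PBS livers. RNA integrity numbers, given for 7 libraries, were 8.4 to 9.2. In the fit over all genes (limma on log2(value + 1), Benjamini-Hochberg adjusted p under 0.05, here "called"), 2363 genes were called higher and 2000 lower in mimic against scramble. Against PBS it was 2733 and 2326, and scramble against PBS gave 0, with 434 genes (3.18%) at an unadjusted p under 0.05. With library totals as the divisor the split against scramble was 5498 higher and 110 lower and the median gene moved by 0.49, and against PBS it was 6882 and 120, with a median of 0.51. The median of the 12 hepatocyte genes was -0.22 against scramble and -0.20 against PBS as deposited, and 0.37 and 0.41 with library totals. The lower mimic sums of these genes are therefore not read as a difference.

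PBS replicate 2 stood apart for white blood cell genes. Of 22 genes that leukocytes in general express, such as Ptprc (CD45), 20 had their highest PBS value in that library, and their sum was 176 there, against 102 to 133 in the other 3 PBS livers. Mimic replicate 2 likewise held the highest mimic value of 20 of the 22, with a sum of 310 against 223 to 243 in the other 3 mimic livers. Mimic replicates 1 and 4 had the lowest column totals, 635097 and 605536, where the other 2 mimic libraries had 871437 and 1033032. Values without some of these libraries are given for Csf3r, Lyz2 and Aif1 and for the counts of the set and of the monocyte and leukocyte genes.

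S100a8 and S100a9, the calprotectin subunits, were low in the control livers and many times higher in the mimic livers. S100a8 was 4.51, 5.01, 9.83 and 6.45 in mimic replicates 1 to 4, against 0.148, 0.330 and 0.0780 in scramble livers and 0.332, 0.316, 0.267 and 0.371 in PBS livers. The mimic livers did not overlap the controls, and mimic replicate 3 was the highest. S100a9 was 6.03, 7.42, 13.3 and 8.35 in mimic livers, against 0.297, 0.396 and 0.234 in scramble livers and 0.452, 0.447, 0.638 and 0.355 in PBS livers. The 4 mimic libraries stood in the same order for both subunits. The group means gave ratios of 34.8 for S100a8 and 28.4 for S100a9 over scramble, and 20.1 and 18.5 over PBS. As log2(value + 1), a scale that makes the change of a low gene look smaller than it is, S100a8 differed by 2.61 ± 0.19 (SE) from scramble and 2.44 ± 0.17 from PBS, and S100a9 by 2.85 ± 0.19 and 2.68 ± 0.17. The scramble values of S100a8 rest on 10, 25 and 5 reads, while each mimic library had 282 to 575.

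The ratio of S100a9 to S100a8 was narrow in the mimic livers, at 1.34, 1.48, 1.35 and 1.30. It was 2.0, 1.20 and 3.0 in scramble livers and 1.36, 1.41, 2.39 and 0.957 in PBS livers, a range that spans the mimic values and comes from few reads. Both subunits thus kept a nearly constant proportion across mimic livers whose levels differed by over 2-fold, and the control livers were too low to say more.

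Ltf (chr9:111019271-111042767, plus strand) encodes lactoferrin, an iron-binding protein of the secondary granules of neutrophils. Its values were 0.992, 1.57, 3.20 and 1.33 in mimic livers. Ltf was listed at 0 in scramble replicates 1 and 3 and at 0.0132, which is 1 read, in replicate 2, and PBS livers had 0.0151, 0.0372, 0.0297 and 0.0646, or 1 to 4 reads each. The mimic livers, with 62 to 187 reads each, did not overlap the controls. From the summed reads the ratio of mimic to PBS was 47.4, with a 95% exact interval of 24.8 to 104 that covers counting error only. Against the single read of the scramble group the ratio was 355, with an interval of 63.3 to 14033. Like the calprotectin pair, Ltf was highest in mimic replicate 3, and it varied most of the 10 genes among the mimic livers, with a coefficient of variation of 55.2%, against 37.2% for S100a8 and 35.9% for S100a9.

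Csf3r (chr4:126024550-126044440, plus strand) encodes the receptor for granulocyte colony-stimulating factor, the main growth factor of neutrophils. It was 3.52, 5.51, 3.87 and 4.33 in mimic livers, against 0.697, 1.02 and 0.842 in scramble livers and 1.15, 1.84, 0.875 and 0.855 in PBS livers. In the controls it was highest in PBS replicate 2, which the mimic livers did not overlap. Csf3r differed by 1.51 ± 0.16 (SE) from scramble and 1.29 ± 0.15 from PBS, or 1.43 from PBS without PBS replicate 2. Its ligand gene Csf3 had no row in the table used here.

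Itgam (chr7:128062640-128118491, plus strand) encodes CD11b, the alpha chain of the Mac-1 integrin with which neutrophils, monocytes and some macrophages adhere to vessel walls. It was 7.82, 6.86, 5.15 and 5.48 in mimic livers, against 1.02, 1.08 and 0.905 in scramble livers and 1.03, 1.41, 1.23 and 1.08 in PBS livers. The controls were tightly grouped, and mimic replicate 1, low for most of the other genes, was the highest for Itgam. Itgam differed by 1.86 ± 0.12 (SE) from scramble and by 1.73 ± 0.11 from PBS. Its partner chain Itgb2 averaged 12.5 ± 1.28 in mimic (SD, n = 4), 2.61 ± 0.440 in scramble (SD, n = 3) and 3.99 ± 2.31 in PBS livers (SD, n = 4), where PBS replicate 2 alone reached 7.35. Icam1, the endothelial ligand of this integrin, averaged 8.93 ± 0.940, 3.42 ± 0.284 and 4.25 ± 1.49 in the same groups. Against scramble Itgb2 and Icam1 rose by 1.91 and 1.17 on the log2 scale, with adjusted p of 0.00032 and 0.00068 by limma.

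Slfn4 (chr11:83175186-83190216, plus strand) is a member of the Schlafen family that is induced by interferon and by Toll-like receptor ligands in mouse myeloid cells. It was 5.73, 6.92, 6.58 and 7.11 in mimic livers, against 0.0890, 0.185 and 0.140 in scramble livers and 0.226, 0.242, 0.148 and 0.0968 in PBS livers. The mimic libraries differed little, with a coefficient of variation of 9.30%, the smallest of the 10 genes. Slfn4 differed by 2.73 ± 0.09 (SE) from scramble and 2.68 ± 0.08 from PBS, with ratios of means of 47.7 and 36.9. Its relatives were higher too: Slfn1 rose by 1.70, Slfn2 by 1.62, Slfn8 by 1.07, Slfn5 by 1.01 and Slfn9 by 0.38 against scramble, at adjusted p of at most 0.015 by limma. The table lists genes with at least 1 CPM in 3 libraries. Slfn1, Slfn8 and Slfn9 did not reach this in the controls, so they have a row only because of the mimic group. Among all such rows 47.9% were called higher against scramble. Schlafen genes are similar in sequence, and the authors' counting could split reads among them, so the share of each is uncertain.

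Chil3 (chr3:106147554-106167564, minus strand) encodes Ym1, a chitinase-like protein without enzyme activity that alternatively activated mouse macrophages and neutrophils secrete. It was 4.53, 8.37, 7.39 and 6.50 in mimic livers, against 0.0593, 0.0396 and 0 in scramble livers and 0.0151, 0.205, 0.119 and 0.113 in PBS livers. The scramble values rest on 4, 3 and 0 reads. From the summed reads the ratio was 198 over scramble (95% exact interval 95.9 to 493) and 61.8 over PBS (42.3 to 94.0), again for counting error only. On the log2(value + 1) scale Chil3 differed by 2.87 ± 0.15 (SE) and 2.77 ± 0.14. Its close relative Chil4 had no row in the table used here, and how reads shared by the 2 genes were counted is not given in the sources used here.

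Cd93 (chr2:148436640-148443563, minus strand) encodes a surface glycoprotein of endothelial cells, monocytes and neutrophils. It was 13.3, 13.2, 10.6 and 11.8 in mimic livers, against 1.19, 1.70 and 1.34 in scramble livers and 1.72, 1.34, 1.8 and 1.74 in PBS livers. The mimic livers lay close together and clear of all controls, and PBS replicate 2, high for several other genes, was the lowest PBS liver here. Cd93 differed by 2.45 ± 0.11 (SE) from scramble and 2.32 ± 0.10 from PBS. Of 12 genes of the liver endothelium, 2 were called higher and 0 lower against scramble, where 17.3% and 14.7% of all genes were. Against PBS 1 was called higher and 3 lower, namely Stab2, Kdr and Cdh5, and with library totals it was 5 higher and 0 lower. Their sums overlapped between groups, at 75.4 to 115 in mimic, 82.4 to 107 in scramble and 86.4 to 105 in PBS livers. The family members Clec14a and Thbd differed by 0.02 and 0.08 and were not called.

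Lyz2 (chr10:117277331-117282321, minus strand) encodes the lysozyme of macrophages and neutrophils and was the most abundant of the 10 genes in every group. It was 49.8, 89.2, 62.4 and 72.3 in mimic livers, against 12.3, 15.8 and 19 in scramble livers and 21.9, 36.9, 19.2 and 10.9 in PBS livers. No mimic liver overlapped a control, and PBS replicate 2 was the control nearest to the mimic range. Lyz2 differed by 2.04 ± 0.32 (SE) from scramble and 1.67 ± 0.29 from PBS, with 1.94 from PBS without PBS replicate 2 and 1.39 without PBS replicate 4. Lyz1, a near-identical neighbour on chromosome 10 whose reads may be split with Lyz2, averaged 1.05 ± 0.228 in mimic (SD, n = 4), 0.278 ± 0.0476 in scramble (SD, n = 3) and 0.650 ± 0.818 in PBS livers (SD, n = 4). Lyz1 was not called, at 0.68 against scramble (adjusted p = 0.064 by limma) and 0.42 against PBS (adjusted p = 0.18). With library totals it was called higher in both, at 0.93 and 0.70. PBS replicate 2 had 1.86, above the highest mimic value of 1.33, and Lyz1 has a row only through the mimic libraries. The ratio of Lyz1 to Lyz2 was 0.0137 to 0.0177 in mimic livers, 0.0140 to 0.0208 in scramble livers and 0.00737 to 0.0505 in PBS livers.

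Aif1 (chr17:35170991-35176068, minus strand) encodes IBA1, a calcium-binding protein of macrophages, and was the gene with the smallest difference. It was 2.26, 4.40, 4.21 and 3.0 in mimic livers, against 1.02, 1.49 and 1.58 in scramble livers and 1.82, 3.33, 2.11 and 1.40 in PBS livers. Mimic and scramble livers did not overlap, whereas PBS replicate 2 exceeded mimic replicates 1 and 4. Aif1 differed by 0.90 ± 0.21 (SE) from scramble and by 0.50 ± 0.20 from PBS, where limma gave an adjusted p of 0.063. Without PBS replicate 2 the difference from PBS was 0.66, adjusted p = 0.012 by limma, and without mimic replicate 1 it was 0.64, adjusted p = 0.026. Without mimic replicate 2, the liver with the highest Aif1, it was 0.40, adjusted p = 0.15. Over the alternatives that left out 1 library the adjusted p against PBS lay between 0.012 and 0.17.

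**Figure D1:**
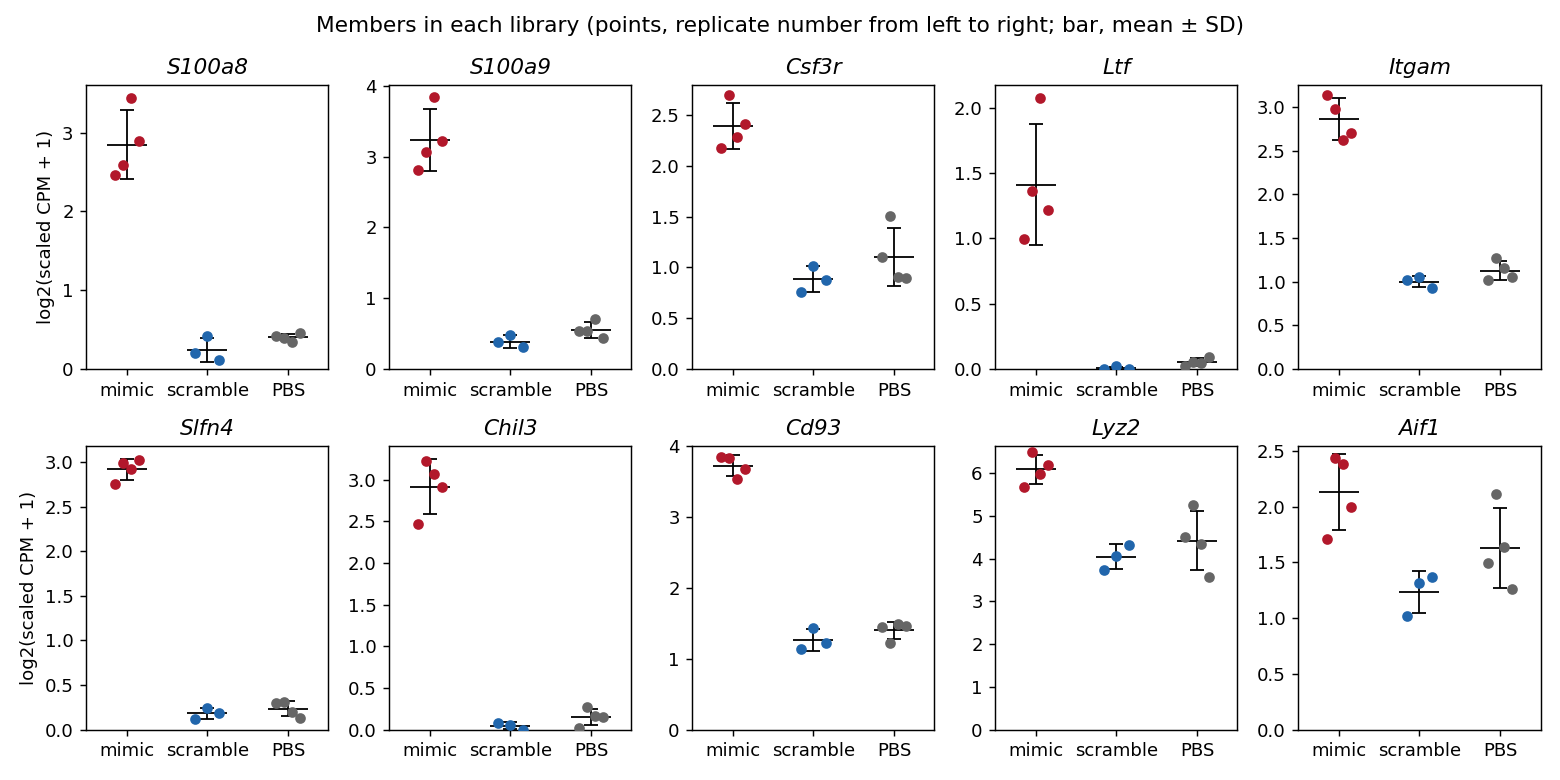
Level of the 10 genes in each library, as log2(scaled CPM + 1), for mimic, scramble and PBS livers, with 1 point per library, and the mean ± SD of these log values as bars. Mimic points lie above all scramble points in 10 of 10 panels and above all PBS points in 9, the exception being Aif1.

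Counted together, 10 of the 10 genes were called higher in mimic against scramble, where 17.3% of all genes were higher and 14.7% lower, and 9 against PBS, where 20.0% were higher and 17.1% lower, by limma. With library totals it was 10 in both comparisons, against 40.3% and 50.5% of all genes. The count against scramble stayed at 10 and that against PBS was 10 when mimic replicates 1 and 4 were both left out, and it was also 10 against PBS without PBS replicate 2. Without mimic replicate 2 the counts were 10 against scramble and 9 against PBS. Every mimic library exceeded every scramble library for 10 genes, against 21.6% of all genes, and every PBS library for 9, against 17.2%. For 9 genes every mimic library exceeded all 7 controls, against 14.4% of all genes. The genes were chosen with these contrasts known, so nothing is read from these counts. They are also bound by the table itself, which lists genes with at least 1 CPM in 3 libraries: S100a8, S100a9, Ltf, Slfn4 and Chil3 reached 1 CPM, by library totals, in 0 of the 7 control libraries and in all 4 mimic libraries, so that they have a row only because of the mimic group. Among the 1120 rows that reached it in fewer than 3 control libraries, 47.9% were called higher against scramble and 49.5% against PBS. The other 5 genes reached it in 3 to 7 control libraries.

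**Figure D2:**
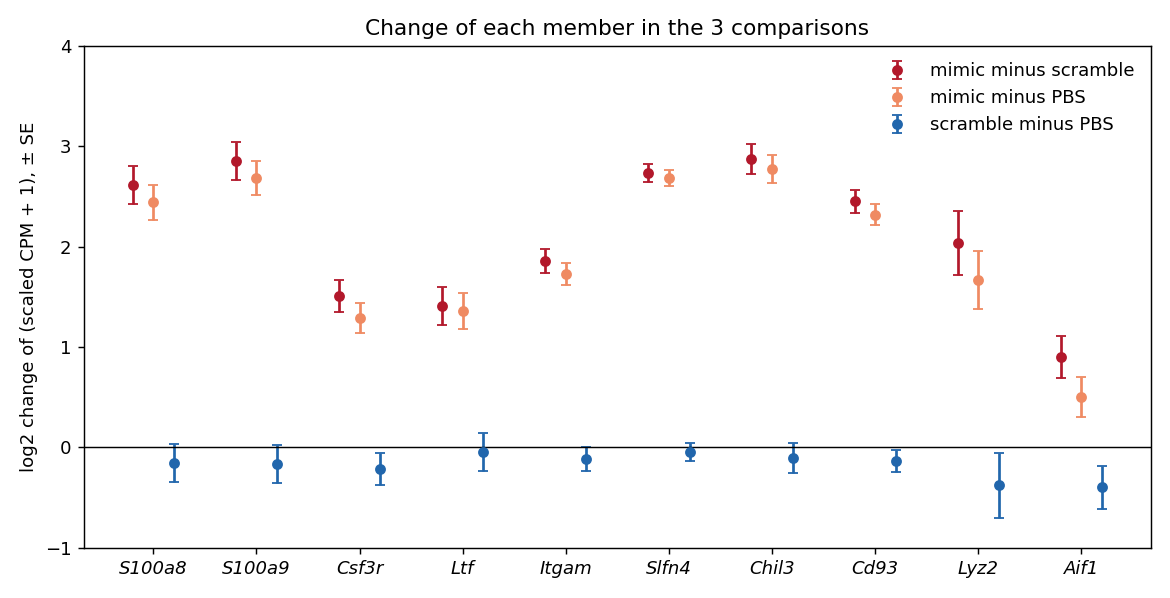
Differences of log2(scaled CPM + 1) with SE for the 10 genes, for mimic minus scramble, mimic minus PBS and scramble minus PBS. Both mimic comparisons share the mimic libraries. Differences lie between 0.90 and 2.87 against scramble and between 0.50 and 2.77 against PBS, and the scramble oligomer differs from PBS by -0.40 to -0.05.

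Scramble against PBS compares livers given an oligomer with livers given PBS. Any carrier given with the oligomer, which the labels do not name, is part of that comparison. By limma 0 of the 10 genes were called in either direction, as were 0 of all 13636 genes, and 0 of the 10 had an unadjusted p under 0.05. The differences of log2(value + 1) were all below 0, from -0.05 for Slfn4 and Ltf to -0.38 for Lyz2 and -0.40 for Aif1, where 49.8% of all genes were below 0. Aif1 averaged 1.36 ± 0.298 in scramble livers (SD, n = 3) and 2.2 ± 0.83 in PBS livers (SD, n = 4), and Lyz2 15.7 ± 3.32 and 22.2 ± 10.8. Without PBS replicate 2 the difference of Lyz2 was -0.10 and that of Aif1 -0.23, whereas without PBS replicate 4 they were -0.66 and -0.52, with unadjusted p of 0.028 and 0.033 and an adjusted p of 1 for both by limma. The same PBS libraries enter the mimic against PBS values, so the smaller mimic differences against PBS and these values are one measurement seen from both sides.

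Per kilobase of exon (GENCODE M21), Lyz2 was the most abundant in the mimic livers at 52.0 ± 12.6 (SD, n = 4), followed by S100a9 at 16.8 ± 6.04, S100a8 at 9.30 ± 3.46 and Chil3 at 4.10 ± 1.0. The ranges of S100a9 and S100a8 overlapped, those of S100a8 and Chil3 did not. Aif1, Cd93 and Slfn4 followed at 2.26, 1.83 and 1.66 with overlapping ranges, then Itgam and Csf3r at 1.26 and 1.19, and Ltf was last at 0.514. In scramble livers the order per kilobase began with Lyz2 at 11.9 ± 2.52 (SD, n = 3) and Aif1 at 0.890 ± 0.194, with S100a9 at 0.592 and S100a8 at 0.267. PBS livers had the same leading 4, at 16.9, 1.41, 0.906 and 0.463. Chil3 and Slfn4 were thus among the lowest in the controls, at 0.0202 and 0.0348 in scramble livers and 0.0692 and 0.0450 in PBS livers.

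The mimic livers did not rank the same way for all 10 genes. S100a8, S100a9 and Ltf were highest in mimic replicate 3, Csf3r, Chil3, Lyz2 and Aif1 in replicate 2, Itgam and Cd93 in replicate 1 and Slfn4 in replicate 4. Ngp, a further granule protein gene of neutrophils that is not one of the 10, was also highest in replicate 3, at 1.12, 2.50, 5.46 and 2.06 in mimic replicates 1 to 4, with 0.0132 to 0.0297 in scramble livers and 0 to 0.0297 in PBS livers. Ccr2, the chemokine receptor of inflammatory monocytes, was highest in replicate 2, at 3.44, 11.2, 6.47 and 5.11. In PBS livers Csf3r, Itgam, Slfn4, Chil3, Lyz2 and Aif1 were highest in replicate 2, the library with the most leukocyte transcripts, while S100a8, S100a9, Ltf and Cd93 were not. With 4 libraries a group, no correlation among the genes is given, and these rankings are a description.

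**Figure D3:**
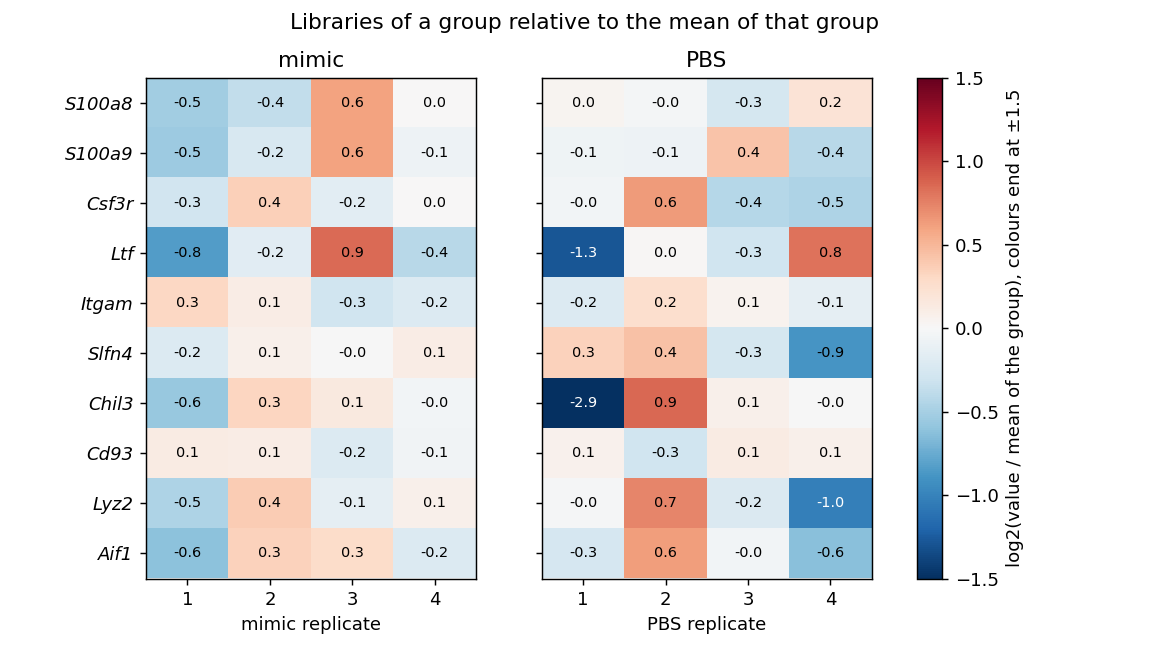
Value of each gene in each mimic library (left) and PBS library (right), as log2 of its ratio to the mean of that group. Red cells are above and blue cells below the mean, and the colour scale ends at 1.5 on both sides. S100a8, S100a9 and Ltf share a peak in mimic replicate 3, while Csf3r, Chil3, Lyz2 and Aif1 peak in replicate 2 of both groups.

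Neutrophil genes outside the set were read beside it. Of 20 genes of neutrophil identity and granules, 5 had a row in the table used here. Ly6g, Elane, Mpo, Camp, Cxcr2 and Retnlg, which define neutrophils and their precursors, were among the 15 without one, and nothing is said here about their levels. Of the 5, 3 were called higher against scramble (limma): Prtn3, the azurophil granule proteinase 3, by 1.20, Ngp by 1.77, and Mmp9, the gelatinase of tertiary granules, by 0.92, with adjusted p of 0.0013, 0.00073 and 4.4e-05. Hdc, the histamine-forming histidine decarboxylase that mast cells and other cells also express, fell by 1.90 (adjusted p = 0.0033), averaging 21.9 ± 12.1 in mimic (SD, n = 4), 77.0 ± 16.4 in scramble (SD, n = 3) and 79.3 ± 26.7 in PBS livers (SD, n = 4). Cebpe, a granulocyte transcription factor, differed by 0.19 and was not called. The counts against PBS were 3 higher and 1 lower as well. For all genes the shares were 17.3% higher and 14.7% lower against scramble, and 20.0% and 17.1% against PBS. Prtn3, Ngp and Mmp9 also have a row only through the mimic libraries. Among all such rows 47.9% were called higher against scramble and 49.5% against PBS. Hdc and Cebpe reached 1 CPM in all 7 controls. The median of the 5 was 0.92, where that of all genes was 0.00. With so few rows, bound in this way, the name of the set was not tested.

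Genes of inflammatory monocytes were higher beside them. Of 27 such genes 17 had a row, and 13 were called higher and 0 lower against scramble, with a median of 1.5. Against PBS it was 12 higher and 1 lower, with a median of 1.46 (limma). The shares of all genes were 17.3% higher and 14.7% lower against scramble, and 20.0% and 17.1% against PBS. Fpr2, Gda, Adgre4 and Treml4 were not called against scramble, at 0.12, -0.34, -0.44 and 0.07. Ly6c2, the surface marker of these monocytes, averaged 3.70 ± 0.510 in mimic (SD, n = 4), 0.203 ± 0.0432 in scramble (SD, n = 3) and 0.403 ± 0.393 in PBS livers (SD, n = 4). The scavenger receptor Msr1 averaged 9.97 ± 0.199, 3.57 ± 0.219 and 4.38 ± 0.585 in these groups, and Ms4a6c and Cd300lf rose by 1.96 and 1.69 against scramble, all at adjusted p of at most 6.5e-05 by limma. Adgre4, a receptor of patrolling monocytes and some macrophages, was the one lower against PBS, by -0.71, and was not called with library totals, where 13 genes were higher and 0 lower. Without mimic replicate 2 the counts called higher were 13 against scramble and 12 against PBS, and without PBS replicate 2 they were 13 and 13. The lowest counts with 1 library left out were 11 against scramble, without scramble replicate 1, and 11 against PBS, without mimic replicate 1. Of the 17, 7 have a row only through the mimic libraries, and among all such rows 47.9% were called higher against scramble and 49.5% against PBS.

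Genes of the phagocyte oxidase, the enzyme with which neutrophils and macrophages make superoxide, were looked at as well. Cyba, the small membrane subunit, averaged 9.53 ± 1.39 in mimic (SD, n = 4), 2.19 ± 0.384 in scramble (SD, n = 3) and 2.92 ± 1.53 in PBS livers (SD, n = 4), and rose by 1.72 against scramble (adjusted p = 0.00042 by limma). The cytosolic subunit Ncf4 and the GTPase Rac2 rose by 1.04 and 1.03 against scramble, at adjusted p of at most 0.00096 by limma. Ncf4 has a row only through the mimic libraries, while Cyba and Rac2 reached 1 CPM in all 7 controls. Against scramble 17.3% of all genes were called higher, and 47.9% of the rows that depend on the mimic group. Cyba, Ncf4 and Rac2 were highest in replicate 2 of both the mimic and the PBS group, and Cyba reached 11.4 in mimic replicate 2 and 5.04 in PBS replicate 2.

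Of the 22 general leukocyte genes, 20 were called higher and 0 lower in both comparisons (limma), with medians of 1.29 against scramble and 1.02 against PBS. Among all genes 17.3% were called higher and 14.7% lower against scramble, and 20.0% and 17.1% against PBS. Without mimic replicate 2 the counts called higher were 20 against scramble and 19 against PBS, and without PBS replicate 2 they were 20 and 20. The lowest count against PBS with 1 library left out was 18, without PBS replicate 4. Itgax (CD11c), the sister chain of Itgam on dendritic cells and some macrophages, averaged 7.80 ± 1.70 in mimic (SD, n = 4), 0.600 ± 0.144 in scramble (SD, n = 3) and 0.947 ± 0.923 in PBS livers (SD, n = 4). Of the 22, 2 have a row only through the mimic libraries, Itgax among them. The lysosomal macrophage marker Cd68 rose by 1.93, the tetraspanin Cd53 by 1.33 and the kinase Fgr by 1.30 against scramble, at adjusted p of at most 0.00018. Csf1r, the receptor for macrophage growth factor, and Itgal were the 2 not called, at 0.37 and 0.41. Their part in the higher values of the 10 genes was not tested.

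Other S100 genes divided. S100a4, S100a6 and S100a11 differed from scramble by 1.54, 1.33 and 1.86 and were called, whereas S100a1, S100a10 and S100a13 differed by -0.02, 0.00 and -0.22 and were not. S100a4 and S100a6 have a row only through the mimic libraries, while S100a1, S100a10 and S100a13 reached 1 CPM in all 7 controls. Of 20 measured relatives of the 10 genes, 11 were called higher and 0 lower against scramble, and 12 and 0 against PBS (limma). Among all genes it was 17.3% and 14.7% against scramble, and 20.0% and 17.1% against PBS. Of the 20, 8 have a row only through the mimic libraries. Among all such rows 47.9% were called higher against scramble and 49.5% against PBS. Of 12 ligands and partners 5 had a row, and 4 were called higher and 0 lower in both comparisons (limma), beside the same shares of all genes. Mmrn2 was not called, at 0.03 against scramble. Tlr4, the receptor for calprotectin, averaged 0.989 ± 0.211 in mimic (SD, n = 4), 0.430 ± 0.0567 in scramble (SD, n = 3) and 0.470 ± 0.0887 in PBS livers (SD, n = 4), and rose by 0.47 against scramble (adjusted p = 0.0041 by limma). Cxcl1, a chemokine that attracts neutrophils, was 4.38, 1.15, 1.20 and 3.35 in mimic replicates 1 to 4, high in replicates 1 and 4 and low in replicates 2 and 3. It averaged 0.545 ± 0.122 in scramble (SD, n = 3) and 0.906 ± 0.264 in PBS livers (SD, n = 4). Tlr4 and Cxcl1 also have a row only through the mimic libraries.

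Markers of other cells were read in the same livers. Of 11 genes of resident Kupffer cells, 2 were called higher, C1qb and C1qc, and 5 lower against scramble (limma): Clec4f, Timd4, Vsig4, Cd163 and Folr2, by -2.42, -1.69, -1.69, -1.74 and -0.79. The shares of all genes were 17.3% higher and 14.7% lower, and 20.0% and 17.1% against PBS. With library totals 5 of the 11 were called higher and 4 lower against scramble, Folr2 no longer being called, at -0.40. Against PBS 1 was called higher, C1qb, and the same 5 lower, or 3 higher and 5 lower with library totals. The median of the 11 was -0.30, and 0.13 with library totals. Their sums overlapped between groups, at 105 to 195 in mimic, 98.6 to 190 in scramble and 103 to 211 in PBS livers. These sums are weighted to abundant genes. Cd5l averaged 42.8 in mimic, 40.2 in scramble and 47.8 in PBS livers, and C1qb 34.6, 15.7 and 18.7, while Clec4f averaged 4.71, 27.9 and 36.8. The red blood cell genes Hba-a2, Hbb-bs and Alas2 differed by -0.14, 0.02 and -0.28 from scramble and were not called, and their sums were 72.3 to 233 in mimic, 106 to 170 in scramble and 106 to 164 in PBS livers. Of 15 lymphocyte genes only Ccl5 had a row, and it was 1.56 to 2.23 in mimic, 0.341 to 0.462 in scramble and 0.290 to 5.71 in PBS livers, not called in either comparison. With library totals Ccl5 was called higher in both, at 1.40 against scramble (adjusted p = 0.00031 by limma) and 0.87 against PBS (adjusted p = 0.0087). Ccl5 has a row only through the mimic libraries.

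**Figure D4:**
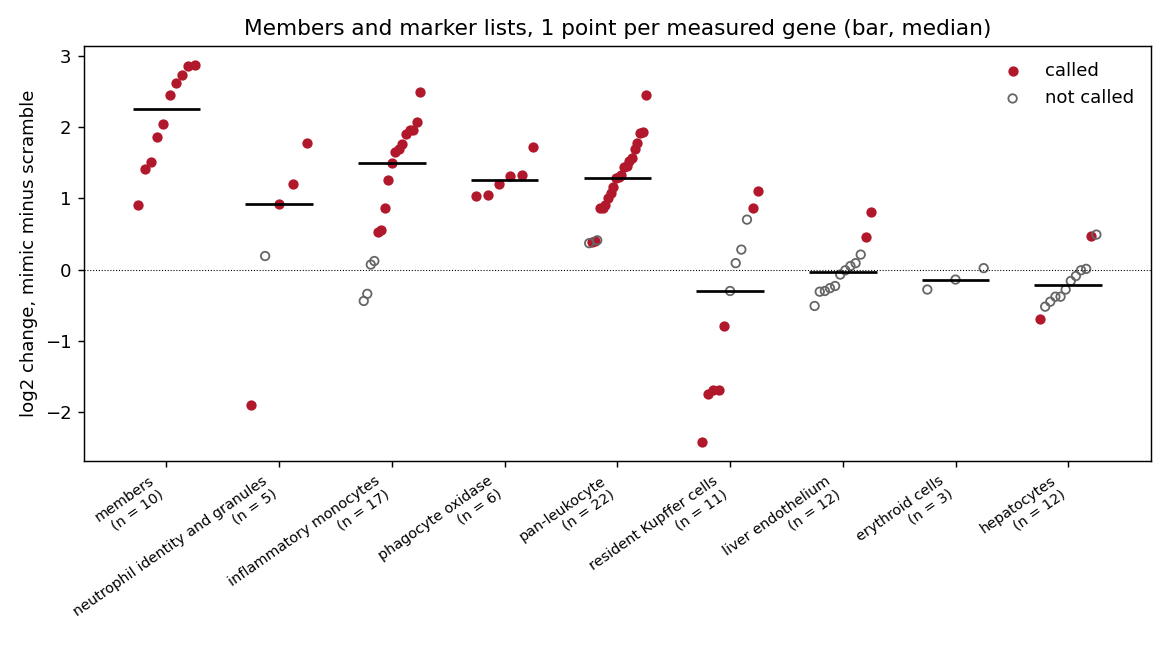
Difference of log2(scaled CPM + 1), mimic minus scramble, for each measured gene of the set and of the marker lists, with filled points for genes called by limma, open points for the others and a bar at the median. The 10 genes have a median of 2.25, inflammatory monocyte genes 1.5, general leukocyte genes 1.29 and resident Kupffer cell genes -0.30, while all genes have a median of 0.00.

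Profiles over the 11 libraries were compared with the mean profile of the 10 for 12180 other genes whose mean level reached 1. Predicted genes with Gm or Rik symbols were left out of these. Nearest were Gpnmb, Slfn1, Soat1, Tlr13 and AK211473. Likeness was measured as the root mean square difference between standardised log2 values, and was 0.108 for Gpnmb, a gene of lipid-laden macrophages, and 0.125 to 0.139 for the other 4. The points share libraries and the split between mimic and control livers. These genes were picked for that likeness, so their group differences are no separate result. Gpnmb, Slfn1 and Tlr13 stayed below 1 CPM, by library totals, in every control library, so they have a row only because of the mimic group. Among all such rows 47.9% were called higher against scramble. Gpnmb was 29.3, 48.1, 45.3 and 36.6 in mimic livers, against 0.133, 0.132 and 0.0780 in scramble livers and 0.121, 0.838, 0.0445 and 0.0807 in PBS livers. Soat1, which esterifies cholesterol, was 2.82 to 3.72 in mimic livers, 1.01 to 1.22 in scramble livers and 1.14 to 1.43 in PBS livers. Tlr13, a receptor for bacterial RNA in mouse phagocytes, was 4.59 to 6.49 in mimic livers, 0.430 to 0.889 in scramble livers and 0.484 to 0.769 in PBS livers. Of the 10 genes themselves, Chil3 was nearest to their mean profile at 0.120, and Aif1 farthest at 0.547.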

How the data were processed

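Liver RNA was sequenced as stranded mRNA libraries, in pairs of short reads on an Illumina HiSeq instrument, per the labels' protocols. The submitters' processing notes name edgeR 3.8.6, R 3.1.2, bedtools 2.17.0, SAMtools 0.1.19, Bowtie, FastQC 0.11.3 and bcl2fastq 1.8.4, in no order, and mouse build mm10 (GRCm38). Settings and gene annotation are not given in the sources used here. The deposited values are a scaled signal, called scaled CPM here: the columns sum to between 605536 and 1504311, so they are not plain CPM, and 100% of the values were whole multiples of a step per library, to a tolerance of 0.001 steps, taken as 1 read. The design had assumed CPM, and the same log-scale test was used.

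Values were taken to log2(value + 1), and 3 group means were fitted over the 11 libraries in R 4.3.3 (limma 3.58.1), letting the prior variance follow the mean, and p-values were adjusted by Benjamini-Hochberg across the 13636 genes. The code was tested on simulated data. Members and lists were chosen with earlier results of these data known. All 10 members are named, and of each list up to 4 measured genes with the smallest p against scramble, those called lower, genes that share reads, a complex or a ligand with a member, and the 5 genes nearest in profile; any other gene was named after its values were seen. One list gene, Lilrb4a, was matched through an older symbol, and 1 oxidase gene is not reported here.

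The low values rest on few reads, which limits their precision, and intervals cover counting error only.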

Additional observations from a re-analysis of the deposited data

Results flagged for a closer look

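In 56 named genes the 4 mimic and the 4 PBS libraries were each checked for a library far from the other 3, which chance gives in about 1 in 20 groups. Of these 112 groups, 10 held one, and 6 of the 10 were PBS replicate 2. Of the set itself, only Cd93 was among them, at 1.34 in PBS replicate 2, where the other PBS livers had 1.72 to 1.8. In the same library Ccl5 was 5.71 (others 0.290 to 0.505), Itgax 2.33 (0.371 to 0.549), Ly6c2 0.987 (0.166 to 0.282), S100a4 0.707 (0.0968 to 0.181) and Slfn8 1.60 (0.694 to 0.784), each above the others. Prtn3 was 0.905 in PBS replicate 3 (0.335 to 0.407), Timd4 2.19 in PBS replicate 4 (4.11 to 4.45) and Tlr4 0.603 in PBS replicate 1 (0.420 to 0.430). In the mimic group Slfn2 was 6.21 in replicate 2 (4.72 to 4.77).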

How the results depend on the processing

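With only genes of a mean of at least 5, 2816 genes were called in either direction in mimic against scramble and 3273 against PBS. This filter keeps Cd93 and Lyz2 of the 10. Called higher in both comparisons were 2 of the set, 0 neutrophil, 3 monocyte, 2 oxidase and 7 leukocyte genes, since fewer genes were tested. The neutrophil gene with such a mean was Hdc, which was called lower in the main fit. Without mimic replicates 1 and 4, chosen after seeing the data, 2548 and 2894 genes were called. Fitting only the groups compared gave 5 calls in scramble against PBS, against 0 with all 3 groups in the fit. Leaving out 1 library gave 2824 (without scramble replicate 1) to 4904 calls against scramble, 3758 to 5681 against PBS and 0 to 1 for scramble against PBS, while the set kept 10 against scramble and 9 to 10 against PBS. With a replicate block, Aif1 against PBS had an adjusted p of 0.014, which makes 10 of the set, and Aif1 in scramble against PBS was -0.48 (unadjusted p 0.0063, adjusted p = 1). The block gave 2111 higher and 1697 lower genes against scramble. Same-numbered libraries did not deviate together (correlations of -0.28 to 0.26 between mimic and controls), and 2 of 6 and 3 of 8 libraries correlated best with their own number. With library totals Aif1 was 0.95 against PBS, adjusted p = 0.00027. A pseudocount of 0.25 raised low genes, Chil3 to 4.59 and Ltf to 2.88 against scramble; no difference of the set that was called changed sign. The count tests planned for recovered reads were not run, because that 1 step is 1 read is only inferred.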
